A study of Mus musculus with 45 samples.

Results

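Cytochromes P450 are haem enzymes that insert an oxygen atom into fatty acids, sterols, retinoids, vitamin D, drugs and dietary compounds, and most of them sit in the endoplasmic reticulum, where the reductase Por hands them electrons. In the small intestine they are best known from enterocytes, the absorptive cells of the villus, in which members of the Cyp2 and Cyp3a subfamilies meet compounds from food before these reach the liver. Many are controlled by nuclear receptors such as Nr1i2 (PXR), Nr1i3 (CAR) and Vdr, or by the aryl hydrocarbon receptor Ahr. The family was followed here in mouse intestinal cells marked by Lgr5, a receptor of stem cells that binds the Wnt-enhancing ligands Rspondins, and in organoids that received those ligands. The members were all genes whose symbol is Cyp followed by a number, a letter or letters and a number. The deposited tables held 94 such genes among 52636, and the 63 with 1 CPM (a read count scaled to the size of its library) or more in at least 2 of the 45 libraries are described. Cyp51, the sterol demethylase, has no letter in its symbol and is no member by this rule.

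Sorted cells came from 15 libraries and organoids from 30. The Lgr5-DTReGFP line carries a cassette that disrupts Lgr5 and marks the cells green, so that heterozygotes (HE) hold 1 disrupted allele and homozygotes (KO) lack the intact gene. Green cells of this line were sorted from pools of E16.5 embryos (2 HE pools of 7 and 8 embryos and 2 KO pools of 2 and 6 embryos, from litters 85 and 97), from 2 HE embryos taken singly at E18.5 (whole small intestine), and from 2 HE mice aged 2 months that each gave a duodenum and an ileum sample. A second set came from adult ileum: 2 Lgr5-Cre/+ mice (HE) and 3 Lgr5-Cre/flox mice (cKO) received 2 mg tamoxifen by intraperitoneal injection and were harvested after 48 h, the sorted cells being positive for eGFP and for the red Rosa26R-Tomato reporter. All 5 of those mice carry the Cre allele in Lgr5, and recombination happens only in cells that express Lgr5. The organoids were grown from E17.5 small intestine and used at passage 4. They derived from 3 wild-type cultures (WT, numbered 10, 5 and 30) and 2 KO cultures (7 and 2), and each culture received Rspo1, Rspo2 or Rspo3 at 100 or 5 ng/ml in a medium with EGF and noggin. The libraries held 1276391 to 9998469 reads in sorted cells, where 1 read is worth 0.1 to 0.784 CPM, and 18127850 to 30805830 in organoids. P-values measure the spread between these few pools, mice or cultures.

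Some libraries stand apart from their labels or share a second difference with the genotype. Lgr5 itself was 104.25 and 125.1 CPM in the E16.5 HE pools and 64.75 and 51.65 CPM in the KO pools, while in the adult Cre set, where an exon is deleted, it was 52.8 and 87.55 CPM in HE and 89.15 to 109.35 CPM in cKO. A supplementary table of the study gives the opposite genotypes to the libraries labelled Cre HE 1 and cKO 2. The Y-linked gene Ddx3y was at most 0.45 CPM in all WT organoid libraries and 55.0 to 73.5 CPM in all KO libraries, and it was 47.3 and 72.95 CPM in the libraries labelled Cre HE against at most 0.15 CPM in those labelled cKO. Genotype and sex therefore cannot be told apart in organoids, nor in the Cre set as labelled, while under the supplementary table both genotypes of the Cre set would hold libraries with and without Ddx3y. Xist was 1.55 CPM in E16.5 KO pool 1 and 638.6 to 1224 CPM in the other E16.5 pools. Ddx3y was 74.3 and 0 CPM in the E18.5 embryos and 85.1 to 94.35 CPM in adult duodenum and ileum of the Lgr5-DTReGFP line. The E16.5 and stage comparisons thus also differ in sex, whose part was not tested. The KO culture 2 library at 100 ng/ml Rspo1 had 213.2 CPM of Xist, against at most 39.05 CPM in the other KO libraries. Albumin and the other hepatocyte markers (5 genes) summed to 5.65 to 29.85 CPM over all groups. In such mixed samples fewer cells of a type and less RNA per cell cannot be told apart.

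By family number, 42 of the 63 members belong to families 1 to 3, which act mainly on foreign compounds and eicosanoids, and 12 belong to family 4, the fatty acid hydroxylases. Another 6 act on sterols, steroids, bile acids or vitamin D, 2 break down retinoic acid (Cyp26b1, Cyp26c1), and Cyp20a1 has no assigned substrate. Many lie in tandem clusters on GRCm38: 13 Cyp2c genes on chromosome 19 (39007019 to 40187333), 8 Cyp4f genes on chromosome 17 (32452723 to 32947402), 6 Cyp3a genes on chromosome 5 (145345279 to 146113287), 6 Cyp2d genes on chromosome 15 (82370527 to 82794294) and 5 Cyp2j genes on chromosome 4 (96027534 to 96664154). Cyp2c44 (from 44005022 on chromosome 19) and Cyp3a13 (from 137892932 on chromosome 5) lie apart from their subfamilies. Reads of near-identical neighbours in these clusters could have been divided between them or dropped by the counting, so values of single Cyp2c, Cyp2d, Cyp3a and Cyp4f genes are uncertain to that degree.

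Different members met the rule in the 2 systems. These also differ in number of libraries and in depth, since 1 read is worth 0.1 to 0.784 CPM in sorted cells and at most 0.055 CPM in organoids. The part of this in the lists below was not tested. The rule is met from sorted cells alone by 46 members and from organoids alone by 53, with 37 in both. The 9 met only in sorted cells were Cyp11a1, Cyp17a1, Cyp1b1, Cyp26b1, Cyp2e1, Cyp2r1, Cyp46a1, Cyp4f39 and Cyp4x1, and the 16 met only in organoids included Cyp1a1, Cyp2c29, Cyp2c37, Cyp2d9 and Cyp2d10. Cyp4a10 reached 1 CPM in 1 library of each system. Cyp11a1, Cyp46a1 and Cyp4f39 passed with 2 libraries each, 1 of them the library labelled cKO 3 (1.55, 1.65 and 2.55 CPM). That library had 42154 genes above 0, the most among sorted cells. Cyp20a1, Cyp2c65, Cyp2c68, Cyp2j6, Cyp2j9, Cyp2s1, Cyp2u1, Cyp3a13, Cyp4f13, Cyp4f16, Cyp4f40 and Cyp4v3, 12 in all, were at 1 CPM or more in every library. At the edge of the rule, 6 members passed with exactly 2 libraries (highest value 1.45 CPM for Cyp4a10 to 7.65 CPM for Cyp2e1) and 16 genes missed it with 1 library (highest 2.05 CPM, Cyp19a1). The other genes left out include Cyp24a1, the vitamin D hydroxylase, which never passed 0.75 CPM, and Cyp26a1 reached 1.15 CPM in 1 library. All 31 undescribed genes had at least 1 value above 0.

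Per kilobase of exon, the highest members of sorted cells were Cyp2c68 (mean 14.5 CPM per kilobase over the 15 libraries), the arachidonic acid epoxygenase Cyp2j6 (13.7), Cyp20a1 (11.3), Cyp4f40 (10.01), Cyp4f16 (8.67), Cyp2w1 (7.48), Cyp2d26 (5.92) and Cyp2s1 (5.00). In organoids, in a table that was normalized separately, Cyp2d26 led with 245 CPM per kilobase, before Cyp2j6 (159), Cyp2c65 (126), Cyp2c66 (108), Cyp3a11 (73.5), Cyp2c68 (52.1), Cyp2b10 (50.2) and Cyp3a25 (45.7). The leading gene moved with stage and region. Cyp20a1 led in E16.5 HE cells (19.7 CPM per kilobase), Cyp2c68 in E18.5 cells (43.0) and in adult ileum of the Lgr5-DTReGFP line, Cyp4f40 in the ileum of the Cre set (14.0 in HE and 12.3 in cKO as labelled), and Cyp4f14, a leukotriene B4 hydroxylase, in adult duodenum (17.4). Cyp2d26 led in all 12 organoid groups, at 96.7 to 508 CPM per kilobase.

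Promoter sequence is shown for 4 members on which the results turn: Cyp3a11, Cyp3a25 and Cyp2c29, which fell most with Rspo3 dose in WT organoids, and Cyp2w1, which moved the other way. These 4 were picked after their values were seen. Each line holds the 250 bases before the RefSeq transcription start on GRCm38.p6, 5′ to 3′ on the gene's strand. Capitals mark CTTTGA (a core of TCF/LEF sites), AGGTCA (a core of nuclear receptor sites) with its variant form AGTTCA, and GCGTG (the core of Ahr sites), read on either strand.
Cyp3a11, chr5:145879855-145880104, minus strand: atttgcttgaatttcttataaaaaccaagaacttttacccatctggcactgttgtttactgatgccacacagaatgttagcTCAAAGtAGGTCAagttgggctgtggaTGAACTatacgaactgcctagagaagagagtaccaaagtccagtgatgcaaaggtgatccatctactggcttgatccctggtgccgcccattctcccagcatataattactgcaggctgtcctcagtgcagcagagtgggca
Cyp3a25, chr5:146009619-146009868, minus strand: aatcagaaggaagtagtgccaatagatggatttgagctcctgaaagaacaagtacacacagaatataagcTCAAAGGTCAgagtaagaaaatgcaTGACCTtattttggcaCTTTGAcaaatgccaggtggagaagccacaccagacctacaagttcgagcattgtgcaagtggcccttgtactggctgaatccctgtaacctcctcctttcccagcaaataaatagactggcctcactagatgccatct
Cyp2c29, chr19:39286835-39287084, plus strand: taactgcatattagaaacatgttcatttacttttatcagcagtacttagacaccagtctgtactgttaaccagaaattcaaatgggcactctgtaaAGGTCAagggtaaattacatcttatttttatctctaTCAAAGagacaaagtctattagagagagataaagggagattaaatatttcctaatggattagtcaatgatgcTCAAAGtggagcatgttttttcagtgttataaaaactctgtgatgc
Cyp2w1, chr5:139352366-139352615, plus strand: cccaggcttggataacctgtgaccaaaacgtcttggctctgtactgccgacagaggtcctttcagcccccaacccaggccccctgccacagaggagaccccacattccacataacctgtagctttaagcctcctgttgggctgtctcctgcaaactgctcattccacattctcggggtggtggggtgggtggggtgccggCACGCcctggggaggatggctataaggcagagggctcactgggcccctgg

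Within 300-base windows, from 250 bases before to 50 after the start, Cyp3a11 held 1 match to CTTTGA, 1 to AGGTCA and 1 to AGTTCA, Cyp3a25 held 2 to CTTTGA and 2 to AGGTCA, some of them overlapping in the joined run TCAAAGGTCA, Cyp2c29 held 2 to CTTTGA and 1 to AGGTCA, and Cyp2w1 held 1 to GCGTG. RefSeq gave a promoter for 54 of the 63 members, 62 windows in all. CTTTGA was in 25.8% of these windows and in 16.0% of all 32851 promoter windows, AGGTCA in 22.6% and 16.3%, AGTTCA in 14.5% and 14.0%, and GCGTG in 24.2% and 32.4%. These are matches of letters and say nothing of binding.

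The first comparison asked how the family differs between E16.5 and E18.5 in HE cells, as the epithelium forms villi and Lgr5 marks its stem cells. More members rose than fell. Of 30 tested, 17 were higher at E18.5 and 4 lower, with a median difference of 1.06 on the log2 scale against 0.23 over all genes, beside 30.3% of all genes higher and 19.4% lower. Here and in all sorted-cell comparisons, differences are on the scale of log2(CPM + 1) and calls need an adjusted p under 0.1 and a change of over 1.5-fold. Rises came from the eicosanoid and foreign-compound group (11 of 19, 1 lower) and from the fatty acid hydroxylases (5 of 7).

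Cyp4f37 (17:32621309-32636184) was at 0 in both E16.5 HE pools and at 17.3 and 16.0 CPM at E18.5. The groups are far apart, at least 8.62-fold by a floor of 3 reads per library averaged over the pools, and the fitted log2 difference was 4.14 ± 0.32 (SE, adjusted p = 0.00044). Its neighbours in the cluster moved with it. Cyp4f16 went from 11.8 and 10.6 to 60.2 and 56.55 CPM, a log2 difference of 2.28 ± 0.17 (adjusted p = 0.0004), and Cyp4f40 from 6.3 and 5.05 to 32.1 and 27.85 CPM, a log2 difference of 2.22 ± 0.24 (adjusted p = 0.0012). Cyp2u1, which hydroxylates long-chain fatty acids, was 7.85 and 8.1 CPM at E16.5 and 31.6 and 34.2 CPM at E18.5, a 3.77-fold rise (log2 1.92 ± 0.21). Cyp2c68 rose from 25.9 and 21.7 to 72.2 and 76 CPM (log2 1.60 ± 0.15), and Cyp2w1, an enzyme known mostly from fetal gut and colon tumours, from 18.85 and 11.1 to 44.55 and 41.65 CPM (log2 1.51 ± 0.26). In none of these did the groups overlap. Cyp2c40 also rose, from 4.75 and 1.05 to 16.15 and 10.75 CPM (log2 2.05 ± 0.53, adjusted p = 0.021). Cyp27a1, a mitochondrial sterol hydroxylase of bile acid synthesis, went from 0.8 and 0 to 4.85 and 3.55 CPM (log2 1.94 ± 0.41, adjusted p = 0.01). The E16.5 values of Cyp2c40 and Cyp27a1 rest on few reads.

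The 4 members that fell were led by Cyp1b1, 1.6 and 4.05 CPM at E16.5 against 0.25 and 0 CPM at E18.5 (log2 -1.70 ± 0.42, adjusted p = 0.017). Cyp1b1 acts on steroids and polycyclic hydrocarbons and is common in mesenchyme. The retinoic acid hydroxylase Cyp26b1 went from 1.6 and 1.55 to 0.25 and 0.7 CPM (log2 -0.82 ± 0.33, adjusted p = 0.08). A single read was worth 0.78 and 0.50 CPM in the E16.5 HE pools and 0.23 and 0.22 CPM in the E18.5 embryos. All these Cyp26b1 values, and the 1.6 and 0.25 CPM of Cyp1b1, thus rest on very few reads. The fall of Cyp26b1 is uncertain for that reason. Cyp20a1 fell from 44.7 and 45.4 to 17.55 and 19.3 CPM (log2 -1.25 ± 0.16), and Cyp39a1, an oxysterol hydroxylase, from 18.85 and 17.7 to 12.25 and 9.9 CPM (log2 -0.68 ± 0.23). Markers of mesenchymal cells fell together in the same comparison, 7 of 7 tested, their sum going from 798 to 1742 CPM in the E16.5 HE pools to 76.5 to 80.6 CPM in the E18.5 embryos, and endothelial markers fell in 4 of 4. Stem cell markers rose in 5 of 5, from 422 to 423 CPM in sum to 2496 to 2585 CPM. The part of these shifts in the members' values was not tested. Leaving out either E18.5 embryo left 0 members called (and 0 of all genes), with 9 and 10 members at an unadjusted p under 0.05.

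**Figure D1:**
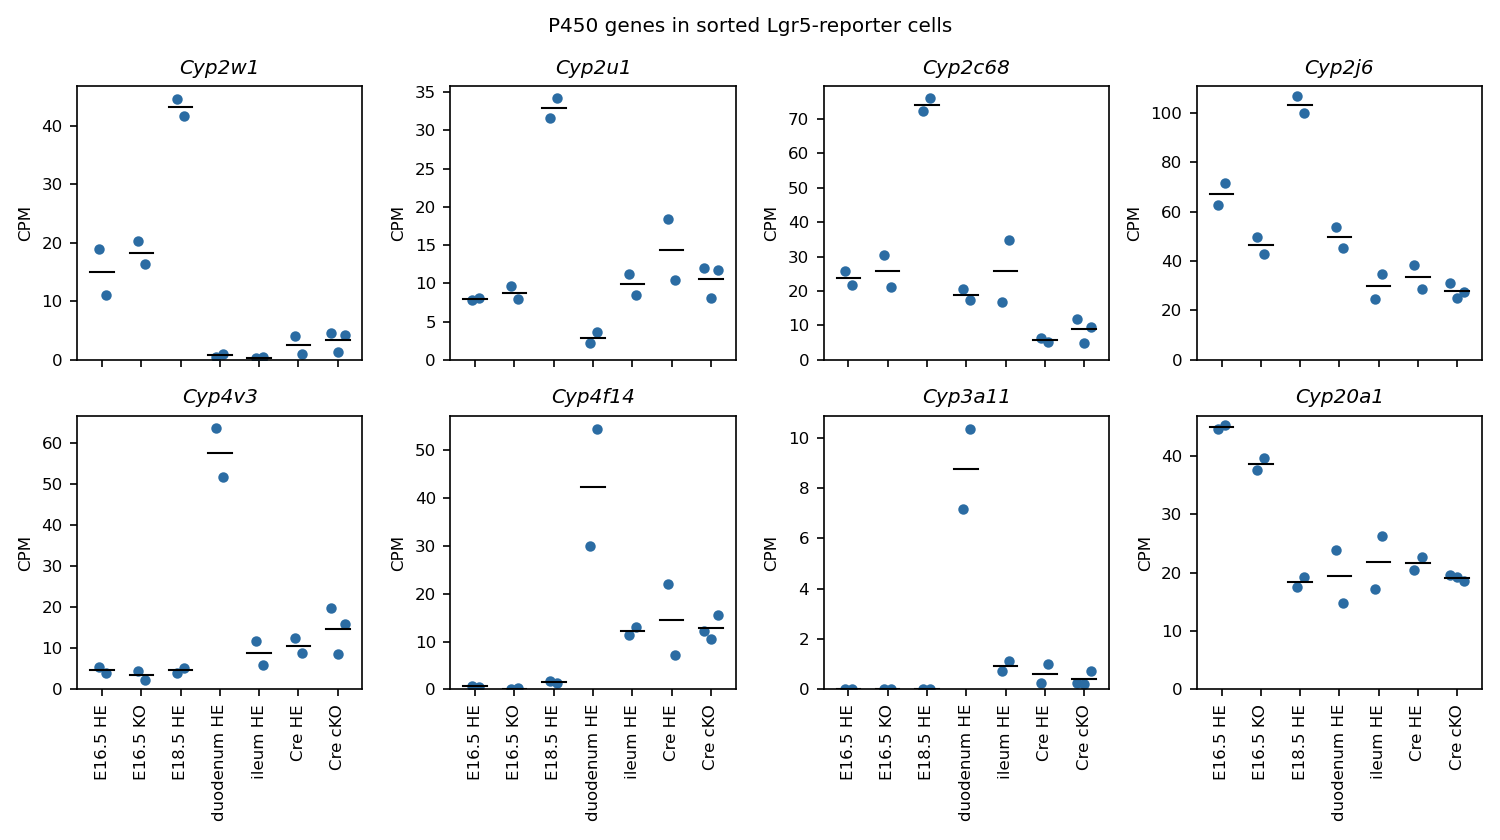
CPM of 8 members in the 15 sorted-cell libraries, each panel with its own linear axis, a dot for each library and a bar for the group mean. Cyp2w1 was highest at E18.5 (44.55 and 41.65 CPM) and at most 0.9 CPM in adult duodenum and ileum of the Lgr5-DTReGFP line (1 to 4.6 CPM in the Cre set), and Cyp4v3 was 63.5 and 51.65 CPM in duodenum and at most 19.7 CPM in every other library.

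The second comparison set the adult cells, as the mean of duodenum and ileum in each of 2 mice, against the 2 E18.5 embryos. The family split. Of 37 members tested, 11 were higher in the adult and 14 lower, beside 13.7% and 11.8% of all genes, with a median of 0.12 (all genes -0.04). In the foreign-compound and eicosanoid group 12 of 24 fell and 5 rose, and the Cyp2c cluster had 5 of 8 lower, while 3 of 4 Cyp3a genes tested and 4 of 9 fatty acid hydroxylases rose (2 of these 9 fell).

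Cyp2w1 changed most. It was 44.55 and 41.65 CPM at E18.5, 0.55 and 0.9 CPM in duodenum and 0.25 and 0.5 CPM in ileum, a 28.8-fold fall (log2 -4.85 ± 0.22, adjusted p = 1.1e-06). The single libraries do not come near each other. Cyp2d26 (32.1 and 31.55 CPM at E18.5) was 9.85 and 14.4 CPM in duodenum and 0.5 and 3.7 CPM in ileum (log2 -2.49 ± 0.31), and Cyp2u1 (31.6 and 34.2 CPM) was 2.15 and 3.6 CPM in duodenum and 11.2 and 8.5 CPM in ileum (log2 -2.40 ± 0.18). Cyp2c70, a mouse bile acid hydroxylase, fell from 4.4 and 7.9 to between 0 and 1.25 CPM (log2 -2.31 ± 0.31), Cyp2c67 by 1.82 ± 0.22 and Cyp2c68 by 1.75 ± 0.15 on the log2 scale. Cyp2j6 (log2 -1.42 ± 0.12) and Cyp3a13 (log2 -1.15 ± 0.17) fell too.

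Among the rises, Cyp4f14 went from 1.85 and 1.35 CPM to 30 and 54.35 CPM in duodenum and 11.45 and 13.05 CPM in ileum (log2 3.18 ± 0.26, adjusted p = 3.2e-05). Every adult library lay above both embryos. Cyp4v3, a fatty acid hydroxylase of the endoplasmic reticulum, went from 3.95 and 5.3 CPM to 63.5 and 51.65 CPM in duodenum and 11.7 and 6 CPM in ileum (log2 2.07 ± 0.25). Cyp3a11, the main drug-oxidizing Cyp3a enzyme of mouse liver and gut, was at 0 in every embryonic library, 7.15 and 10.35 CPM in duodenum and 0.75 and 1.15 CPM in ileum (log2 2.11 ± 0.27). Against the floor of 3 reads this is at least 13.0-fold higher in duodenum and at least 1.41-fold in ileum. Cyp2e1, known for ethanol oxidation, was at 0 in E18.5 and 4.85 and 7.65 CPM in duodenum, at least 9.27-fold higher there, Cyp3a44 at least 7.01-fold and the CAR target Cyp2b10 at least 5.26-fold. Cyp4f15 (log2 1.72 ± 0.35) and Cyp3a25 (log2 1.64 ± 0.27, adjusted p = 0.0021) rose as well. Setting the members at 0 in a group to these bounds leaves each on the same side of the family's median.

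Other cell types moved in this comparison. Paneth markers rose in 6 of 6, their sums going from 146 to 152 CPM at E18.5 to 16954 to 17673 CPM in duodenum and 11378 to 28689 CPM in ileum, tuft markers rose in 5 of 5 and goblet markers in 6 of 6. Immune markers rose in 2 of 3 tested, their sums going from 11.25 to 18.6 CPM at E18.5 to 2087 to 2260 CPM in duodenum and 1494 to 3145 CPM in ileum. Of 10 enterocyte markers 9 fell and 1 rose, and mesenchymal markers fell in 6 of 6. Their part in the P450 differences was not tested, and the embryos were sorted from whole small intestine while the adult samples were regions. With the ileum alone 2 of 28 members were higher and 14 lower, beside 11.8% and 11.5% of all genes. Among the regulators 6 of 13 fell and Vdr rose (log2 1.94), and of 8 electron transfer partners 2 fell, Por by 0.78 on the log2 scale and Pgrmc2.

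The duodenum and ileum of the same 2 adult mice were compared with mouse as a block. The family was lower in the ileum. Of 32 members tested 15 were lower and 1 higher, beside 7.13% of all genes lower and 3.97% higher, and the median was -0.73 against 0.03. With 2 mice and the block, the spread of each gene is estimated largely from other genes. With TMM factors 16 members were lower and 1 higher, but testing every gene above 0 left only 1 member called, so the calls depend on the filter. The summed CPM of the 63 members was 485 ± 42.5 (SD, n = 2) in duodenum and 287 ± 33.7 (SD, n = 2) in ileum. Lower members came from the foreign-compound and eicosanoid group (10 of 19) and from the fatty acid hydroxylases (4 of 9), with 3 of 4 Cyp3a and 2 of 6 Cyp2c genes.

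Cyp2e1 was 4.85 and 7.65 CPM in duodenum and 0 and 0.25 CPM in the ileum of the same mice (log2 -2.67 ± 0.31, adjusted p = 0.0013). Cyp4v3 was 63.5 and 51.65 against 11.7 and 6 CPM (log2 -2.63 ± 0.20, adjusted p = 0.00012), a 6.18-fold difference. Cyp3a11 was 7.15 and 10.35 against 0.75 and 1.15 CPM (log2 -2.31 ± 0.29), and Cyp3a25 was 3.95 and 9.7 against 1.25 and 0.25 CPM (log2 -2.12 ± 0.46). In each of these 4 the regions did not overlap and both mice went the same way. Cyp2d26 (log2 -2.28 ± 0.34), Cyp2c65 (log2 -1.90 ± 0.34), Cyp2b10 (log2 -1.89 ± 0.32) and Cyp4f14 (log2 -1.65 ± 0.21) were lower too. Cyp17a1, a steroid hydroxylase, was 2.35 and 2.25 CPM in duodenum and at 0 in both ileum libraries, at least 3.25-fold lower there. Cyp2j6 (log2 -0.74 ± 0.19, adjusted p = 0.053) and Cyp2s1 (log2 -0.72 ± 0.20, adjusted p = 0.064) were lower by less. Cyp2u1 went the other way, 2.15 and 3.6 CPM in duodenum and 11.2 and 8.5 CPM in ileum, 2.83-fold higher there (adjusted p = 0.021).

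**Figure D2:**
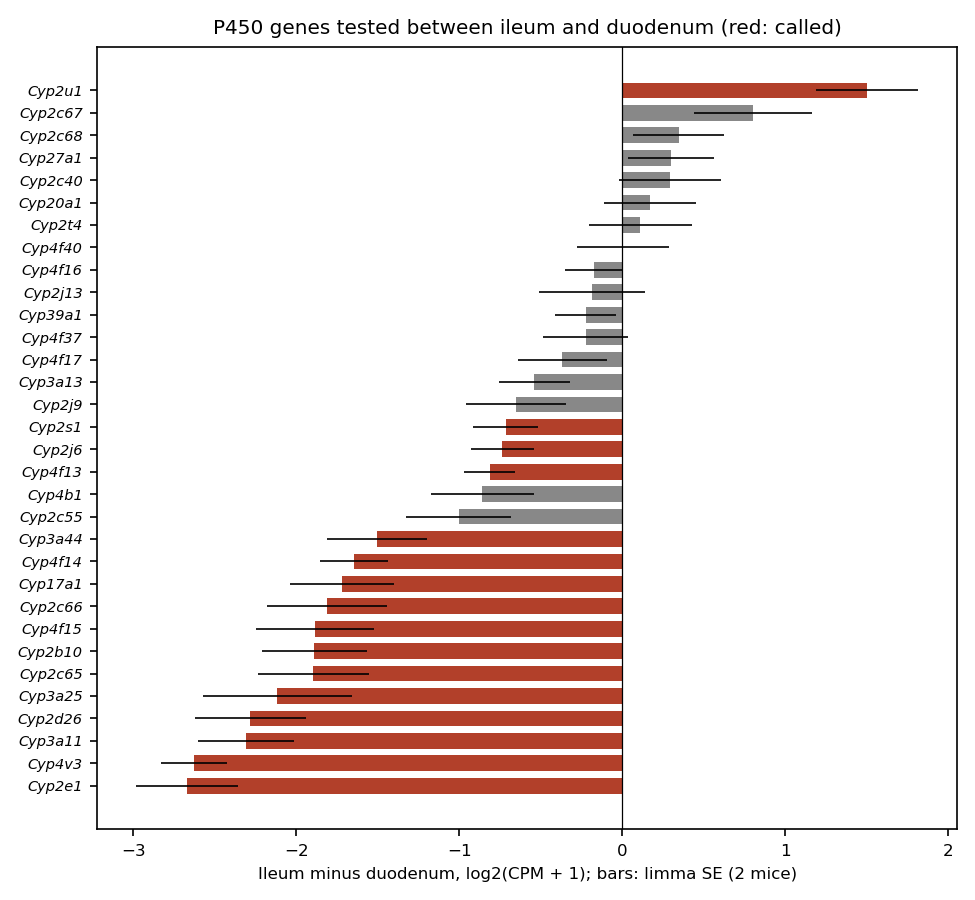
Log2 difference, ileum minus duodenum, of the 32 tested members with bars for the limma standard error, called members in red. Of the 16 called members 15 lie to the left of 0, Cyp2e1 farthest at -2.67, and Cyp2u1 lies to the right.

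Markers of differentiated cells moved with region. Enterocyte markers were lower in the ileum in 9 of 10, summing to 1234 to 1544 CPM in duodenum and 566 to 588 CPM in ileum. Tuft cell markers were lower in 5 of 5, summing to 1717 to 3010 against 209 to 421 CPM, and goblet markers were higher in 4 of 6. Stem cell markers had 0 of 5 called. The part of these cells in the P450 differences was not tested. Outside the family, 9 of 24 conjugation enzymes were lower and 2 higher, 5 of 9 genes of retinoid metabolism lower and 1 higher, and 5 of 11 transporters higher and 4 lower, the higher ones including the ileal bile acid carriers Slc10a2 and Fabp6. Of 13 regulators the bile acid receptor Nr1h4 was higher and Ppara lower. With only 2 mice, leaving one out leaves no replicate spread.

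The loss of Lgr5 was tested in vivo at E16.5 (2 KO against 2 HE pools) and in adult ileum (3 cKO against 2 HE). At E16.5, 0 of 24 members passed in limma, with 1 at an unadjusted p under 0.05, and edgeR's quasi-likelihood test on reads recovered from the CPM steps called 0 of 16. Over all genes limma called 0.0868% higher and 0.44% lower. The 1 member was Cyp2j6, at 62.7 and 71.65 CPM in HE and 49.8 and 42.9 CPM in KO (log2 -0.53 ± 0.18, adjusted p = 0.256 in limma). Its groups did not overlap, nor did those of 5 other members that were lower in KO (Cyp20a1, Cyp26b1, Cyp2c67, Cyp2c70 and Cyp2d26). Cyp2s1 was the 1 member above HE without overlap, at 14.9 and 16.15 CPM in HE and 23.75 and 22.65 CPM in KO (log2 0.55 ± 0.26, adjusted p = 0.375 in limma). With 2 pools a side, groups often separate without any real difference. The share of all genes without overlap was not counted, so no trend is read from these members. Cyp2w1 (18.85 and 11.1 in HE, 20.3 and 16.3 CPM in KO) and Cyp2c68 (25.9 and 21.7 in HE, 30.3 and 21.05 CPM in KO) overlapped. The summed level of the 63 members was 301 ± 2.47 CPM in HE and 269 ± 19.8 CPM in KO (SD, n = 2). Enterocyte markers were lower in KO in 4 of 10, summing to 2336 to 2824 CPM in HE and 1459 to 1510 CPM in KO. Mesenchymal markers summed to 798 to 1742 CPM in HE and 174 to 486 CPM in KO (1 of 7 lower), immune markers to 33.45 to 54.2 and 11.2 to 17.55 CPM, endothelial markers to 22.8 to 48.7 and 5.05 to 22.35 CPM and Paneth markers to 83.9 to 92.6 and 140.25 to 267.05 CPM, with 0 called in the last 3 lists. Their part in the P450 values was not tested.

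In the adult Cre set 0 of 27 members passed with the genotypes as labelled, and 0 had an unadjusted p under 0.05, with 0.0302% and 0.0202% of all genes higher and lower. Cyp4f40 was 47.5 and 22.4 CPM in the libraries labelled HE and 28.2, 18.05 and 45.4 CPM in those labelled cKO, Cyp2w1 4 and 1 against 4.6, 1.4 and 4.25 CPM, and Cyp2c65 1 and 4.55 against 1.75, 6.5 and 1.75 CPM. These 3 are shown because they were called under the alternative that follows. The exchange of genotypes also goes with depth, since the libraries labelled HE 1, cKO 1 and cKO 3 held 9055248, 8122451 and 9998469 reads with 32121 to 42154 genes above 0, and those labelled HE 2 and cKO 2 held 3084708 and 5720490 reads with 22675 and 24944 genes. Its part in the values was not tested. With the genotypes of the supplementary table, chosen as an alternative, 3 members were called: Cyp2w1 (log2 1.27 ± 0.28, adjusted p = 0.0685) and Cyp4f40 (log2 0.93 ± 0.23, adjusted p = 0.0832) higher in cKO and Cyp2c65 lower (log2 -1.38 ± 0.31, adjusted p = 0.0690). That setting called 2.54% of all genes higher and 1.38% lower. No direction is drawn from this set.

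In organoids the question was how the family responds to Rspo1, Rspo2 and Rspo3 at a high and a low dose, and whether the response needs Lgr5. The paper describes full survival of replated organoids at the low dose of Rspo2, but with Rspo1 and Rspo3 only at the high dose. The part of survival in the differences between doses and ligands was not tested. The summed level of the members was higher at the low dose of each ligand in WT. In WT cultures it was 1442 ± 232 CPM at 100 ng/ml Rspo1 and 4747 ± 451 CPM at 5 ng/ml (SD, n = 3), 2080 ± 243 and 6560 ± 143 CPM with Rspo3, and 1315 ± 258 and 2396 ± 349 CPM with Rspo2. In KO cultures the sums were 1954 ± 635 and 4311 ± 75 CPM with Rspo1, 2212 ± 14 and 7369 ± 620 CPM with Rspo3, and 1925 ± 773 and 2133 ± 93 CPM with Rspo2 (SD, n = 2). The groups of 100 and 5 ng/ml did not overlap for any ligand in WT, nor for Rspo1 or Rspo3 in KO, and they overlapped for Rspo2 in KO.

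**Figure D3:**
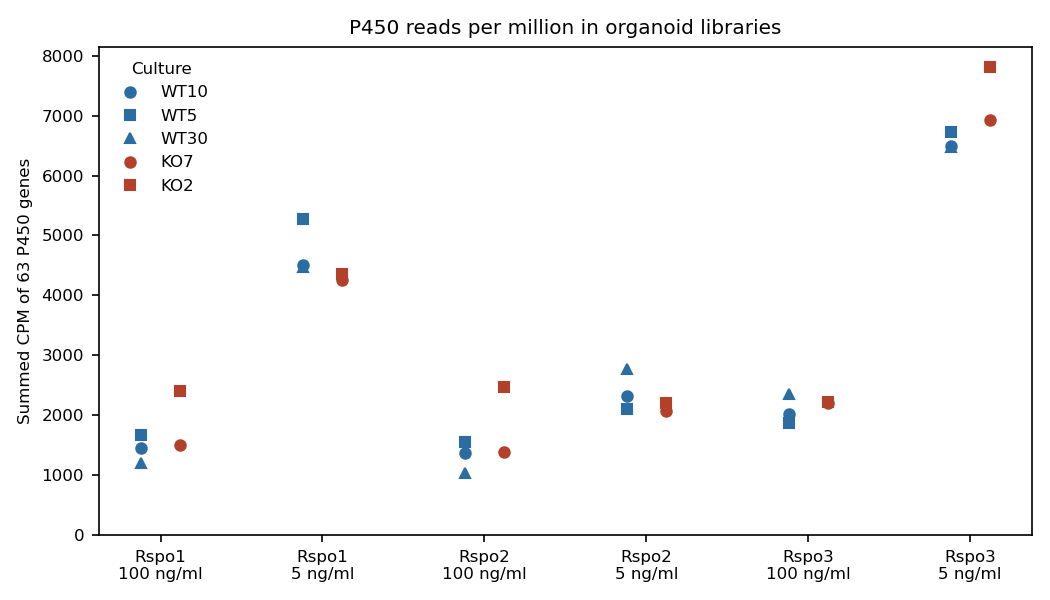
Summed CPM of the 63 described members in each organoid library by ligand and dose, WT cultures in blue and KO cultures in red. With Rspo3 at 5 ng/ml the WT libraries average 6560 CPM against 2080 CPM at 100 ng/ml, and with Rspo2 the WT averages are 2396 and 1315 CPM.

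Calls in organoids need an adjusted p under 0.05 and a change of over 1.5-fold, and the culture was a block. With Rspo1 in WT, 39 of 53 tested members were lower at 100 than at 5 ng/ml and 6 higher, beside 8.27% and 27.6% of all genes. With Rspo3 34 were lower and 6 higher (9.41% and 26.4% of all genes), and with Rspo2 16 were lower and 2 higher (5.54% and 16.2%). The medians were -1.11, -1.13 and -0.34, against 0.28, 0.24 and 0.17 over all genes. TMM factors shift the medians of all genes by -0.28, -0.19 and -0.20 for Rspo1, Rspo3 and Rspo2, and under them 41, 37 and 24 members were lower and 5, 5 and 2 higher. The all-gene share of higher calls falls from 77.0% to 48.5% with Rspo1, from 73.7% to 53.9% with Rspo3 and from 74.5% to 45.8% with Rspo2. Lower calls over all genes grow too, from 1583 to 3012 with Rspo1, 1800 to 2933 with Rspo3 and 1059 to 2058 with Rspo2. The fits tested 19130 genes, and 18833 with TMM factors. The 3 ligands were tested in the same cultures, and 11 members were lower at 100 ng/ml with all of them: Cyp2c38, Cyp2c65, Cyp2c66, Cyp2c67, Cyp2c70, Cyp2d26, Cyp2s1, Cyp4f13, Cyp4f14, Cyp4f16 and Cyp4f40. Rspo1 and Rspo3 shared 34 lower members. These overlaps were not counted over all genes.

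The drug-oxidizing Cyp3a genes and their companions fell most. Cyp3a11 was 107.8, 103.8 and 47.65 CPM at 100 ng/ml Rspo1 in WT cultures 10, 5 and 30, and 632.15, 667.1 and 550.9 CPM at 5 ng/ml. With Rspo3 it was 114.4, 74 and 66.65 against 1111.8, 1165 and 1025.2 CPM, and with Rspo2 72.15, 64.6 and 43.35 against 141.55, 93 and 89.65 CPM. The low-dose libraries of Rspo1 and Rspo3 lie far above all others, and the low dose of Rspo2 (89.65 to 141.55 CPM) lies nearer to the high doses of the others (47.65 to 114.4 CPM) than to their low doses (550.9 to 1165 CPM). The fall was 7.49-fold with Rspo1 (log2 -2.91 ± 0.36, adjusted p = 7.4e-07) and 13.2-fold with Rspo3 (log2 -3.72 ± 0.36, adjusted p = 1.7e-08), and the Rspo2 difference of -0.84 was not called. Cyp3a25 (5:145977194-146009618) was 23.15, 20.25 and 7.5 against 123.9, 184.45 and 116.25 CPM with Rspo1 (log2 -3.09 ± 0.38), and 20.85, 13.05 and 14.65 against 313.25, 303.85 and 306.95 CPM with Rspo3 (log2 -4.19 ± 0.38), the largest fall of any tested member. Of the 7 Cyp3a genes 6 were lower with Rspo1, 6 with Rspo3 and 1 with Rspo2. Cyp3a57 was the exception and rose with Rspo1 (log2 0.80) and Rspo3 (log2 0.96) and fell with Rspo2 (log2 -0.60, adjusted p = 0.049).

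Cyp2b10, whose induction through Nr1i3 is a classical liver response, was 15.75, 41.2 and 12.05 CPM at 100 ng/ml Rspo1 and 129.05, 278.75 and 138 CPM at 5 ng/ml (log2 -3.03 ± 0.32), and it fell by 2.89 ± 0.32 with Rspo3. Cyp2c29 was 12.75, 18.05 and 6 against 81.85, 104.45 and 40.45 CPM with Rspo1 (log2 -2.54 ± 0.29) and 10.25, 8.5 and 10.3 against 124.3, 118.25 and 95.45 CPM with Rspo3 (log2 -3.41 ± 0.29). Neither gene was called with Rspo2, where Cyp2b10 was 22.75, 17.35 and 11.8 against 23.8, 35.95 and 22.75 CPM. Of 14 Cyp2c genes 12 were lower with Rspo1, 9 with Rspo3 and 8 with Rspo2. The largest Rspo2 fall was that of Cyp2c70, 3.0, 3.5 and 3.2 against 13.5, 17.9 and 17.25 CPM (log2 -2.02 ± 0.42), followed by Cyp2s1 (log2 -1.71 ± 0.24), an enzyme of epithelia, Cyp2c66 (log2 -1.54 ± 0.24), Cyp2c68 (log2 -1.50 ± 0.21) and Cyp4f40 (log2 -1.33 ± 0.14).

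The most abundant members followed the same pattern at other sizes. Cyp2d26 was 174.4, 178.4 and 166.9 against 600.75, 566.45 and 647.3 CPM with Rspo1 (log2 -1.80 ± 0.22), 360.75, 230.5 and 499.2 against 890.35, 822.1 and 1015.9 CPM with Rspo3, and 257.5, 218.65 and 177.85 against 402.15, 263.1 and 635.35 CPM with Rspo2 (log2 -0.91 ± 0.22). Cyp2j6 was 351.25, 424.3 and 262.1 against 880.2, 1009.9 and 926.5 CPM with Rspo1, and with Rspo2 culture 5 held 439.2 against 433.15 CPM, so that the doses overlap. All 6 Cyp2d genes tested were lower with Rspo1, 5 with Rspo3 and 1 with Rspo2, and 4, 4 and 0 of 5 Cyp2j genes. Of the fatty acid hydroxylases 7 of 9 were lower with Rspo1, 7 with Rspo3 and 4 with Rspo2. Cyp4f17 rose with Rspo1 (log2 0.60, and 0.37 and not called with TMM factors) and Rspo2 (log2 0.85), and Cyp4f15 with Rspo2 (log2 1.00 ± 0.19).

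A small set rose with dose. Cyp39a1 was 3.75, 6.05 and 8.55 CPM at 100 ng/ml Rspo1 against 1.65, 1.75 and 2.55 CPM at 5 ng/ml (log2 1.21 ± 0.14), and 4.75, 4.1 and 7.1 against 0.5, 0.6 and 0.9 CPM with Rspo3 (log2 1.90 ± 0.14). Cyp20a1 was 22.95, 18.05 and 23.25 against 9.45, 8.25 and 9.55 CPM with Rspo1 (log2 1.15 ± 0.10) and rose by 1.35 ± 0.10 on the log2 scale with Rspo3. Cyp2w1 was 47.85, 41.3 and 68.25 against 21.6, 24.25 and 27.5 CPM with Rspo1 (log2 1.05 ± 0.26), and 40.6, 31.05 and 66.8 against 9.1, 9.95 and 24.85 CPM with Rspo3 (log2 1.66 ± 0.26). In all 3 genes the doses of Rspo1 and of Rspo3 stayed apart in every culture. With Rspo2 Cyp2w1 was 31.8, 27.6 and 46.25 against 44.3, 38.5 and 65.05 CPM, lower at the high dose in each culture and not called. The vitamin D activating enzyme Cyp27b1 rose with Rspo1 (log2 0.86 ± 0.15) and Rspo3 (log2 0.75 ± 0.15) at levels of at most 1.75 CPM. Cyp27a1, Cyp26b1 and Cyp1b1 were at most 1.15 CPM in every WT library.

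In WT, Cyp2u1 was lower at the high dose with Rspo1 and Rspo2 and higher with Rspo3. With Rspo1 it was 48.35, 71.35 and 84.95 CPM at 100 ng/ml and 103.4, 164.85 and 141.05 CPM at 5 ng/ml (log2 -1.001), and with Rspo2 86.1, 130.6 and 77.85 against 205.3, 169 and 330 CPM (log2 -1.23 ± 0.26). With Rspo3 it was 194.45, 153.1 and 262.2 against 104.55, 158.85 and 127 CPM (log2 0.63 ± 0.26, adjusted p = 0.046, and 0.36 and not called with TMM factors). In culture 5 the Rspo3 difference went the other way. In KO cultures 7 and 2 the Rspo3 difference was 0.20 and -0.89 on the log2 scale, and not called. Whether the dose effect differs between ligands was not tested.

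**Figure D4:**
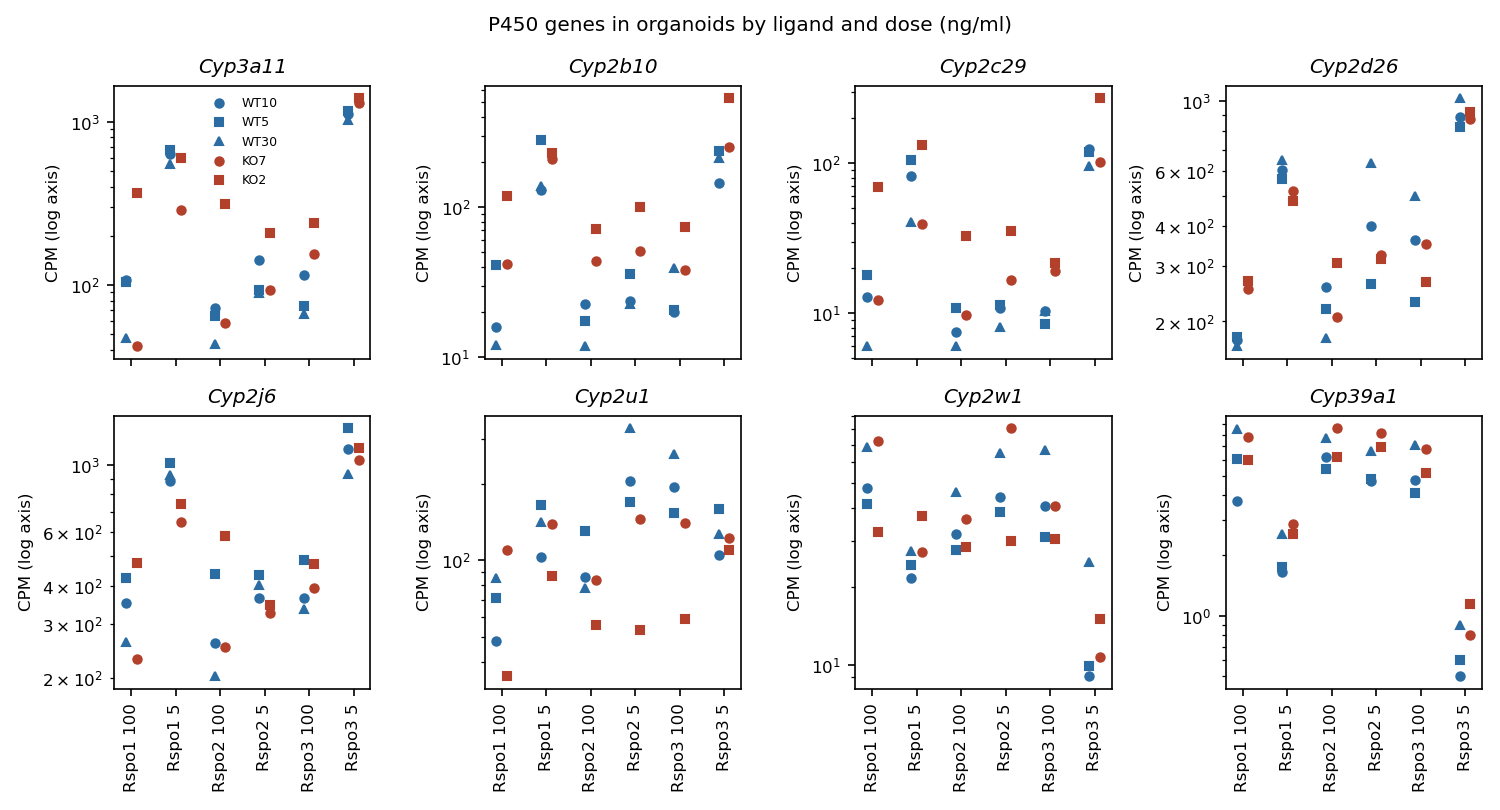
CPM on a log axis of 8 members in the organoid libraries by ligand and dose, WT in blue and KO in red. Cyp3a11 at 5 ng/ml Rspo3 lies between 1025.2 and 1385.7 CPM in all 5 cultures, and Cyp39a1 at that dose and ligand between 0.5 and 1.15 CPM.

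Cell type markers moved with dose as well. Stem cell markers were higher at 100 ng/ml in 5 of 5 and Paneth markers in 6 of 6 with each ligand in WT. Enterocyte markers were lower in 10 of 10 with Rspo1, where they summed to 4700 to 5623 CPM at 100 and 11362 to 12282 CPM at 5 ng/ml, in 8 of 10 with Rspo2 (4977 to 8089 against 8725 to 15463 CPM) and in 7 of 10 with Rspo3 (8546 to 13083 against 16316 to 16864 CPM). Goblet markers were lower in 4, 4 and 2 of 6 with Rspo1, Rspo2 and Rspo3. The part of cell composition in the P450 values was not tested. Genes that serve the family or act beside it were counted as well. Of 8 electron transfer partners 7, 5 and 7 were lower with Rspo1, Rspo2 and Rspo3, with Por at -1.49, -0.73 and -1.64 on the log2 scale. Of 14 regulators 6, 6 and 5 were lower, with Nr1i3 at -1.33, -0.74 and -1.29 and Vdr at -1.25 with Rspo1 and -1.42 with Rspo3 (-0.11 and not called with Rspo2), and Rxrb was higher with Rspo3. Of 25 conjugation enzymes 20, 16 and 19 were lower and 2, 2 and 3 higher, of 10 transporters 5, 5 and 7 lower and 1 higher with each ligand (Abcc1), of 9 genes of retinoid metabolism 6, 6 and 5 lower, and of 8 haem synthesis genes 1, 1 and 1.

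In KO cultures members were called with Rspo1 and with Rspo3, and 0 with Rspo2. With Rspo1 28 of 53 members were lower at 100 ng/ml and 3 higher (6.86% and 19.9% of all genes), and with Rspo3 37 were lower and 4 higher (9.39% and 27.7%). With Rspo2 limma called 0, with 8 members at an unadjusted p under 0.05, beside 0.199% of all genes lower and 0.878% higher. Between genotypes, 28 lower members were shared with Rspo1 and 32 with Rspo3, and the difference between genotypes in these effects was not tested. The share of all genes lower in both genotypes was not counted. Cyp3a11 was 42.1 against 285.6 CPM in KO culture 7 and 363.1 against 601.3 CPM in KO culture 2 with Rspo1 (log2 -1.73 ± 0.43), and 154.95 against 1306.5 and 240.3 against 1385.7 CPM with Rspo3 (log2 -2.80 ± 0.43). Both cultures fell, culture 2 by less. Cyp2c70 fell most with Rspo1, 1.55 against 72.1 CPM in culture 7 and 16.2 against 45.55 CPM in culture 2 (log2 -3.14 ± 0.51), and Cyp3a25 most with Rspo3, 13.3 against 290.75 and 51.2 against 482.2 CPM (log2 -3.78 ± 0.46). Cyp39a1 (log2 1.08 and 1.81) and Cyp20a1 (log2 0.82 and 1.66) rose with Rspo1 and Rspo3, and Cyp27a1 with Rspo1 (log2 0.71, and 0.55 and not called with TMM factors). Without KO culture 7, 10 members were lower and 2 higher with Rspo1 (2.78% and 6.32% of all genes), 12 in all, and without the KO culture 2 library of high Xist 33.

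With Rspo2, 22 of the 53 members went opposite ways in the 2 KO cultures, 17 were lower at 100 ng/ml in both and 11 higher in both. The same counts were not made over all genes, so they are not read as a trait of the family. Cyp3a11 and Cyp2j6 are examples of members that went opposite ways. Cyp3a11 was 58.8 CPM at 100 and 92.65 CPM at 5 ng/ml in culture 7, and 313.3 and 208.55 CPM in culture 2. Cyp2j6 was 252.9 and 325.9 CPM in culture 7, and 584.1 and 345.1 CPM in culture 2. Cyp2c70 was lower at the high dose in both, 2.25 against 4.85 and 13.15 against 24.7 CPM. Lgr5, which the KO allele still transcribes in part, was 104.45 and 20.55 CPM in culture 7 and 75 and 90.45 CPM in culture 2. Stem cell markers summed to 1635 to 1739 CPM at 100 and 694 to 2072 CPM at 5 ng/ml, with 0 of 5 called, and enterocyte markers had 0 of 10 called. Without culture 2, 3 of 52 members were called lower with Rspo2, beside 0.821% of all genes lower and 1.19% higher: Cyp2c68 (log2 -1.13 ± 0.24), Cyp2c65 (log2 -0.91 ± 0.22) and Cyp2w1 (log2 -1.14 ± 0.28).

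The test of whether the Rspo2 dose effect differs between genotypes called 1 of 53 members, with 15 at an unadjusted p under 0.05, beside 0.633% of all genes higher and 3.11% lower. It was Cyp4f40. In WT it was 5.75, 5.8 and 2.7 CPM at 100 and 14.35, 17.9 and 8.25 CPM at 5 ng/ml, and in KO 10.1 and 21.1 against 15.8 and 25.65 CPM, so that the KO effect was less negative by 0.89 ± 0.22 on the log2 scale (adjusted p = 0.029). The call was lost without WT culture 10 (adjusted p = 0.113), 5 (0.054) or 30 (0.207) or KO culture 2 (0.356), and without KO culture 7 the same test called 10 members higher and 1 lower, beside 2.98% and 6.43% of all genes. In the same test stem markers were lower in 5 of 5 and Paneth markers in 6 of 6.

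**Figure D5:**
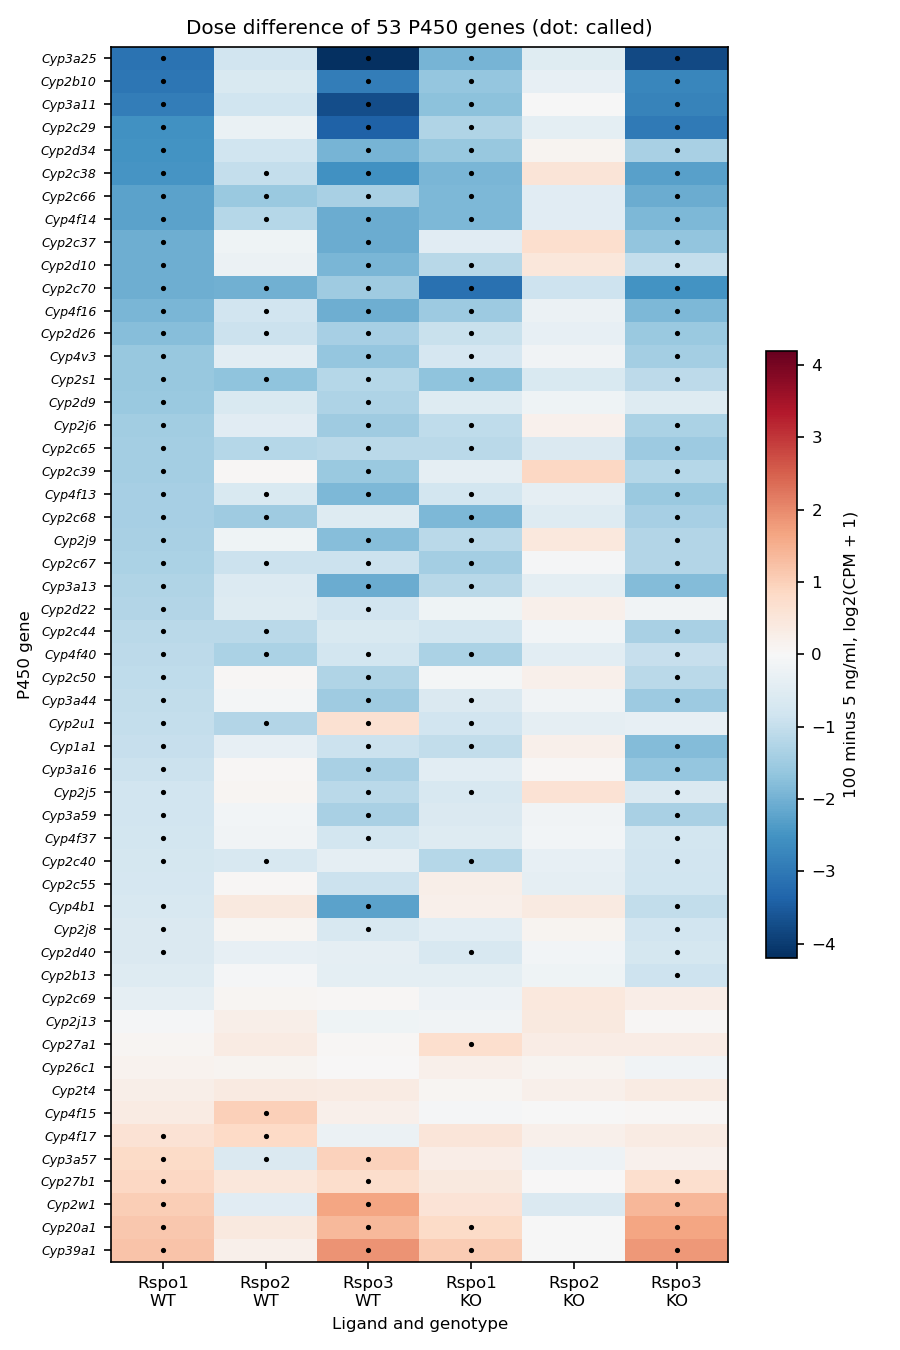
Log2 difference, 100 minus 5 ng/ml, of the 53 tested members (rows) for each ligand in WT and KO (columns), blue to red, with a dot where a member was called. The Rspo1 and Rspo3 columns carry 45 and 40 dots in WT and 31 and 41 in KO, and the Rspo2 columns 18 in WT and 0 in KO.

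Genotype averaged over ligands and doses gave no call among members. Over 5 culture means 0 of 53 passed in limma, with 11 at an unadjusted p under 0.05, beside 0.0889% of all genes higher and 0.0627% lower. The nearest was Cyp4b1, 14.3 to 101.0 CPM in WT libraries and 32.1 to 116.65 CPM in KO (log2 0.84, adjusted p = 0.105). With the culture as a random block, which takes libraries of 1 culture as partly independent, 0.852% of all genes were higher and 0.35% lower, and 4 members passed: Cyp4f40 (log2 1.00 ± 0.20), Cyp27a1 (log2 0.94 ± 0.20) and Cyp4f15 (log2 0.79 ± 0.21) higher and Cyp4f16 (log2 -0.85 ± 0.14) lower.

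The ligands were then compared at equal dose in WT. At the low dose Rspo2 differs from Rspo1 and Rspo3 in organoid survival, as described above, and the part of survival was not tested. At 5 ng/ml 29 of 53 members were lower with Rspo2 than with Rspo1 and 5 higher, beside 5.13% and 9.58% of all genes, with a median of -0.77 (all genes 0.08). Cyp2c29 was 10.75, 11.25 and 8.1 CPM with Rspo2 and 81.85, 104.45 and 40.45 CPM with Rspo1 (log2 -2.70 ± 0.29). Cyp3a25 (log2 -2.69 ± 0.38), Cyp2b10 (log2 -2.62 ± 0.32), Cyp3a11 (log2 -2.53 ± 0.36), Cyp2c38 (log2 -2.25 ± 0.40) and Cyp2c37 (log2 -2.10 ± 0.25) followed. Cyp39a1 (log2 1.09), Cyp3a57 (log2 1.01), Cyp2w1 (log2 0.95), Cyp2u1 (log2 0.75) and Cyp20a1 (log2 0.67) were higher with Rspo2. At that dose 4 of 5 stem markers were higher with Rspo2, and of 10 enterocyte markers 5 were lower and 3 higher. At 100 ng/ml 1 of 53 members was called, beside 0.199% of all genes lower and 0.774% higher. Cyp4f40 was 5.75, 5.8 and 2.7 CPM with Rspo2 and 7.6, 12.2 and 5.45 CPM with Rspo1 (log2 -0.70 ± 0.14, adjusted p = 0.015), and the call was lost without any 1 of the WT cultures.

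Between Rspo3 and Rspo1, 10 members were called at each dose. At 5 ng/ml 7 members were higher with Rspo3 and 3 lower, beside 3.32% and 8.83% of all genes. Cyp4b1, a fatty acid hydroxylase that also activates furans, was 93.8, 84.6 and 101.0 CPM with Rspo3 and 42.3, 40.0 and 37.65 CPM with Rspo1 (log2 1.20 ± 0.18), with no overlap. Cyp3a25 (log2 1.15 ± 0.38), Cyp3a13 (log2 1.02 ± 0.27), Cyp4f13 (log2 0.81), Cyp4v3 (log2 0.64), Cyp4f14 (log2 0.64) and Cyp3a59 (log2 0.64) were higher, and Cyp2w1 (log2 -0.84), Cyp39a1 (log2 -0.83) and Cyp20a1 (log2 -0.63, and -0.55 and not called with TMM factors) lower. At 100 ng/ml 9 were higher and 1 lower (1.57% and 3.64% of all genes). Cyp2u1 was 194.45, 153.1 and 262.2 CPM with Rspo3 and 48.35, 71.35 and 84.95 CPM with Rspo1, 2.96-fold higher (log2 1.56 ± 0.26, adjusted p = 0.0052), and Cyp2d34 (log2 1.31), Cyp2c44 (log2 1.14), Cyp2d22 (log2 1.10), Cyp2d26 (log2 1.00), Cyp2c66 (log2 0.95), Cyp4f14 (log2 0.80), Cyp2c68 (log2 0.75) and Cyp4v3 (log2 0.61) were higher and Cyp4f17 lower (log2 -0.64, and -0.50 and not called with TMM factors). TMM factors shift the median of all genes by 0.16 in this comparison and turn the all-gene share of higher calls from 30.1% to 75.3%. Under them 12 members were higher and 0 lower, beside 636 higher and 209 lower of 18833 genes. Leaving out WT culture 10 left 0 members called and leaving out culture 30 left 1. Enterocyte markers were higher with Rspo3 in 6 of 10 at 100 ng/ml and in 2 of 10 at 5 ng/ml, and stem markers were lower in 3 and 4 of 5.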

How the data were processed

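RNA-seq libraries of sorted cells (Ovation SoLo kit) and organoids (NEBNext kit, rRNA depletion) were trimmed with Trimmomatic 0.36, aligned with STAR 2.5.3a and counted with HTSeq 0.9.1 on GRCm38 by the authors, per the submitters' processing notes. The deposited values are CPM (counts scaled to library size), written in steps of 0.05, in 2 tables that were scaled separately, and tests were run only within a table. All gene identifiers of the family (94) matched the GRCm38 models of GENCODE. Groups were taken from the labels.

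Log2(CPM + 1) was tested with limma 3.58.1 in R 4.3.3 (linear models, empirical Bayes with trend), p-values adjusted by Benjamini-Hochberg over all genes tested. A gene was tested with 1 CPM or more in at least 2 libraries of the fit, so that a gene high in a single group could pass through that group alone. Calls needed a change of over 1.5-fold and an adjusted p under 0.1 (sorted cells) or 0.05 (organoids). One organoid fit held 30 libraries with culture as a block. Genotype in organoids was tested on 5 culture means, and the adult against E18.5 comparison on the mean of both regions per mouse. Duodenum and ileum come from the same mice (correlation of deviations 0.257), E16.5 pools of 1 number from the same litter (-0.0324), organoid libraries of 1 number from the same culture (0.353 to 0.774), and the Cre mice share only a number. The sizes of single reads gave the depths. At E16.5, where all low values came out as whole reads, edgeR 4.0.16 was run on those reads and called 352 of 12453 genes. Scripts were tested on simulated data.

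Members and lists were chosen with earlier results of these data known. Named genes were the 8 highest per kilobase in each table, in each comparison all called members up to 12 or else the 6 largest rises and falls, and a set of well-known family members. Alternatives were the filter on low values, a pseudocount of 0.1, TMM factors, the block, leaving out each replicate and, chosen after seeing the data, edgeR at E16.5 and leaving out the KO library of high Xist. Promoters come from RefSeq, GRCm38.p6.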

Additional observations from a re-analysis of the deposited data

Results flagged for a closer look

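The Rspo2 dose effect on Cyp4f40 differed between KO and WT organoids by 0.89 on the log2 scale in the test of the difference itself (adjusted p = 0.029 in limma), the effect being negative in all 3 WT cultures and in both KO cultures. The call held with TMM factors, a pseudocount of 0.1 and without KO culture 7. It was lost without any single WT culture, without KO culture 2, without the block and when every gene above 0 was tested. Genotype and sex cannot be told apart in these organoids.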

How the results depend on the processing

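Among results for single genes, 2327 values under alternatives kept their direction and side of the threshold, 318 lost the call in the same direction, and none reversed. Counts of called members moved by over 1.5 times as follows. Leaving out 1 replicate gave 0 to 25 calls for E18.5 against E16.5, 11 to 23 for the Rspo2 dose in WT (11 without culture 30), 12 to 33 for the Rspo1 dose in KO, 0 to 3 for the Rspo2 dose in KO, 0 to 2 for Rspo2 against Rspo1 at 100 ng/ml, 4 to 11 and 0 to 11 for Rspo3 against Rspo1 at 5 and 100 ng/ml, 0 to 11 for the difference of the Rspo2 dose effect and 0 to 2 for KO against WT organoids. Testing every gene above 0 gave 1 call for ileum against duodenum. It gave 6 and 6 for Rspo3 against Rspo1 at 5 and 100 ng/ml and 0 for the difference of the Rspo2 dose effect. A pseudocount of 0.1 gave 2 for that difference. Adult against E18.5 gave 15 with 4 adult libraries and 16 with ileum alone. The genotypes of the supplementary table gave 3 in the Cre set. Without the replicate block, organoid calls were 6 and 0 for Rspo3 against Rspo1 at 5 and 100 ng/ml, 0 for Rspo2 against Rspo1 at 100 ng/ml and 0 for the difference of the Rspo2 dose effect, and culture as a random replicate block gave 4 for KO against WT. The block moved no other count by over 1.5 times: with it the counts were 0 at E16.5 (litters), 20 for E18.5 against E16.5, 26 for adult against E18.5 and 0 in the Cre set, where in the last 3 cases samples share only a number, and without it 13 for ileum against duodenum. The causes were not tested. Without KO culture 2, KO against WT organoids gave 2 of 52 members higher, beside 0.905% of all genes higher and 0.326% lower. For counts with no share of all genes beside them here or above, no change of the family is read. Leaving out a mouse was not run for the regions, since no residual degree of freedom remains. In sorted cells 3 reads are worth up to 2.35 CPM, which limits what can be said of the low members.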
